A study of Nothobranchius furzeri with 15 samples.

Results

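The genes gfap, fabp7a and sox2, which are widely used to mark radial glia, were followed across 3 organs (brain, liver, skin) of Nothobranchius furzeri, an annual killifish. They were found in a deposited killifish transcript catalogue as the entries paired with the zebrafish genes ENSDARG00000025301 (gfap), ENSDARG00000007697 (fabp7a) and ENSDARG00000070913 (sox2). Each of these identifiers belonged to 1 entry, so the members are 3 of 18311 catalogue entries. They are Nofu_gene_3_0007125 for gfap, Nofu_gene_3_0006118 for fabp7a and Nofu_gene_3_0016947 for sox2. All 3 carry the authors' flag for a best bidirectional hit, and the lengths that the deposited values imply are 2822 bases for gfap, 918 for fabp7a and 2300 for sox2.

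RNA was measured by RNA sequencing in 15 samples of the strain GRZ, a short-lived laboratory strain, from fish aged 12 weeks. The groups are 5 brains, 5 livers and 5 skins, with no treatment or transgene given in the labels, and the samples of each organ are biological replicates per the series' design text. Samples are called by tissue and by the number in their titles. Total counts ran from 17.7 M to 30.8 M per library. Skin 7 stood apart from the other skins, with 502 entries of at least 1 CPM and 4 times the mean of the others, where no other skin held more than 33. Such entries numbered 251 in liver 15, 203 in liver 14, 150 in liver 10, 112 in liver 13 and 10 in liver 11. Liver 14 shared 95 of its entries with skin 7 (46.8% of its list, 18.9% of that of skin 7), and no other liver shared more than 7. None of the 3 genes was in any of these lists. Each library is bulk RNA of a sample labelled brain, liver or skin, so fewer cells of a type and less RNA per cell cannot be told apart. How much of the organ was taken is not given in the labels. The names of the 3 genes come with the zebrafish identifiers that define the members, and no file pairs other identifiers with names. Lists of other radial glia genes and of markers of neurons, hepatocytes, epidermis and other cell types were therefore not analysed here, and the tissue labels were not checked against such markers.

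Radial glia are cells that line the ventricles of the brain and send a long process towards its surface. In mammals most of them are lost after development, whereas in zebrafish they persist through adult life and include neural stem cells from which new neurons arise. Whether they do so in this killifish was not tested here. The protein of gfap is an intermediate filament of astroglia and radial glia. That of fabp7a is a brain-type carrier of fatty acids inside the cell, and sox2 encodes a transcription factor that keeps neural stem and progenitor cells undifferentiated. Outside the brain, sox2 is also known from sensory and taste organs of fish, and gfap from glia of peripheral nerves in mammals.

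All 3 genes were highest in brain, and brain stood farthest above the other organs for gfap. Brain exceeded liver 171-fold for gfap, 46.4-fold for sox2 and 13.5-fold for fabp7a, and it exceeded skin 135-fold, 15.7-fold and 16.0-fold. Of the members, sox2 alone also passed the test between liver and skin, where it was lower in liver. Per unit length, gfap was the most abundant of the 3 genes in brain and fabp7a the most abundant in liver and skin.

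The filament gene gfap was the most abundant member in brain per unit length. In counts-per-million scaled by the trimmed mean of M-values (TMM CPM, which corrects for differences in RNA composition), its level was 209 in brain 15, 314 in brain 10, 365 in brain 11, 390 in brain 13 and 330 in brain 14. Brain 15 was the lowest and the other brains ran from 314 to 390 CPM. The mean of all brains was 322 ± 69.4 CPM (SD, n = 5). In liver gfap stood at 0.947 CPM in liver 15, 1.57 in liver 10, 2.12 in liver 11, 3.56 in liver 13 and 1.34 in liver 14, from 16 to 40 counts per library. In skin it stood at 2.72 CPM in skin 6, 2.56 in skin 13, 2.95 in skin 7, 1.25 in skin 5 and 2.37 in skin 14, from 23 to 66 counts. Every brain library lay far above every library of liver and skin, while the livers and skins overlapped.

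The log2 fold change of gfap for brain over liver was 7.42 (SE 0.38, adjusted p = 4.80e-11 by edgeR's quasi-likelihood test with Benjamini-Hochberg adjustment over all entries). Against skin the value was 7.08 (SE 0.37, edgeR adjusted p = 8.31e-11). Among the 16611 entries tested, 413 had a higher log2 fold change for brain over liver and 328 a higher one for brain over skin. Between liver and skin the fold change was -0.34 (SE 0.32, edgeR adjusted p = 0.368), which is about the size of its standard error. Leaving out 1 library gave values from -0.68 to -0.16, none of them past the threshold. The value of -0.68 came without liver 13 (edgeR adjusted p = 0.0516).

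**Figure D1:**
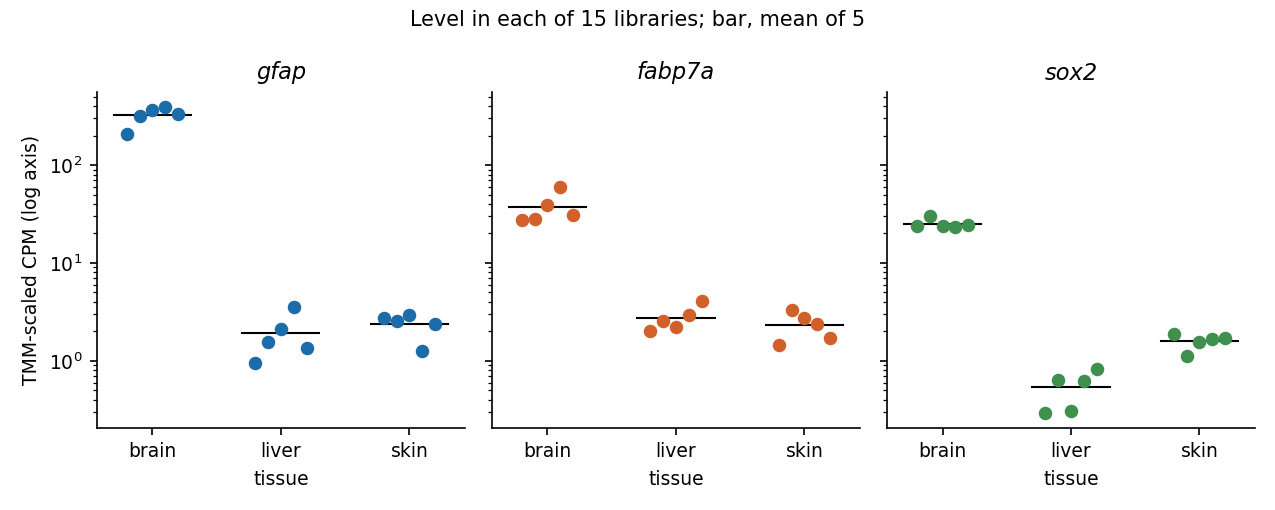
Level of gfap, fabp7a and sox2 in TMM-scaled CPM (log axis) in each of 15 libraries, by tissue, with a bar at the mean of 5 libraries. For each gene the 5 brain libraries lie above all others, and for sox2 the 5 skin libraries also lie above the 5 liver libraries.

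The fatty acid carrier fabp7a was intermediate in brain per unit length. Its level was 27.7 CPM in brain 15, 28.1 in brain 10, 39.4 in brain 11, 60.3 in brain 13 and 30.7 in brain 14, with a mean of 37.3 ± 13.7 (SD, n = 5). Brain 13 was the highest by a wide margin, and the same library was also the highest for gfap. In liver fabp7a was measured at 2.01 CPM in liver 15, 2.56 in liver 10, 2.20 in liver 11, 2.94 in liver 13 and 4.08 in liver 14, with 29 to 64 counts per library. Skin gave 1.44 CPM in skin 6, 3.34 in skin 13, 2.72 in skin 7, 2.39 in skin 5 and 1.73 in skin 14, with 27 to 68 counts. Liver 14 stood above the other livers, and the ranges of liver and skin overlapped.

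For fabp7a the log2 fold change was 3.75 for brain over liver (SE 0.30, edgeR adjusted p = 8.66e-09) and 4.00 against skin (SE 0.30, edgeR adjusted p = 4.92e-09). These folds are well short of those of gfap. Liver retained 7.40% of the mean brain level of fabp7a and skin 6.24%, against 0.593% and 0.737% for gfap, on the TMM CPM scale. These shares depend on the scaling. In the deposited reads per kilobase and per-million counted reads, without TMM, they were 2.62% and 3.73% for fabp7a. For gfap they were 0.203% and 0.438%. The order of liver and skin for fabp7a thus turned with the scale. Liver and skin did not pass the test for fabp7a, with a log2 fold change for liver over skin of 0.25 (SE 0.29, edgeR adjusted p = 0.475).

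The transcription factor gene sox2 was the least abundant member in brain per unit length. It stood at 24.1 CPM in brain 15, 29.9 in brain 10, 24.1 in brain 11, 23.1 in brain 13 and 24.6 in brain 14, a mean of 25.2 ± 2.70 (SD, n = 5). Brain 10 lay above the other brains, which were nearly equal. In skin sox2 was measured at 1.87 CPM in skin 6, 1.13 in skin 13, 1.56 in skin 7, 1.69 in skin 5 and 1.73 in skin 14, a mean of 1.60 ± 0.282 from 23 to 43 counts. Liver gave 0.296 CPM in liver 15, 0.641 in liver 10, 0.304 in liver 11, 0.624 in liver 13 and 0.828 in liver 14, a mean of 0.538 ± 0.232. The 3 tissues did not overlap, with brain highest and liver lowest.

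The liver values of sox2 rest on 4 to 13 counts per library. The 4 counts of liver 11 have a 95% Clopper-Pearson interval of 0.0827 to 0.777 CPM and the 13 counts of liver 14 one of 0.439 to 1.41 CPM. These intervals cover counting error only. A count of 0 allows a level of up to 3 counts, which was 0.177 to 0.267 CPM in liver libraries. All livers lay above it in measured level, which says only that each count exceeded 3. The lower bounds of liver 11 (0.0827 CPM), liver 15 (0.0960) and liver 13 (0.251) fell below it. Since the intervals of the livers overlap, differences among the livers are not resolved at this depth. All 5 skins lay above all 5 livers in measured level. Library by library this is not resolved throughout, since the interval of liver 14 overlaps that of every skin. The lower bounds of the skins ran from 0.717 CPM in skin 13 to 1.30 in skin 6.

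The log2 fold change of sox2 was 5.54 for brain over liver (SE 0.26, edgeR adjusted p = 1.99e-11) and 3.98 against skin (SE 0.23, edgeR adjusted p = 2.30e-10). For liver over skin it was -1.56 (SE 0.26, edgeR adjusted p = 5.87e-05), so that skin exceeded liver 2.95-fold. The order brain, skin, liver with every step past the test was shared by 10.0% of all entries tested. Of gfap and fabp7a, neither was separated between liver and skin, so their order there cannot be given beyond the spread of the samples.

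Large parts of the catalogue differ between these organs, and the members' calls need reading against that. All 3 members were called higher in brain than in liver, as were 37.8% of the entries tested, and all 3 were called higher in brain than in skin, as were 34.7%. At least 4-fold higher in brain than in both other organs were all 3 members and 13.4% of entries. All 5 brain libraries lay above all 5 livers for 32.5% of entries and above all 5 skins for 31.8%. Between liver and skin, 33.5% of entries were called higher in skin and 29.3% higher in liver. All 5 skins lay above all 5 livers, as they did for sox2, in 26.4% of entries. Of all entries tested, 97.5% had a lower log2 fold change for brain over liver than gfap, 93.0% a lower one than sox2 and 87.3% a lower one than fabp7a. For brain over skin these shares were 98.0% for gfap, 92.1% for sox2 and 92.2% for fabp7a.

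**Figure D2:**
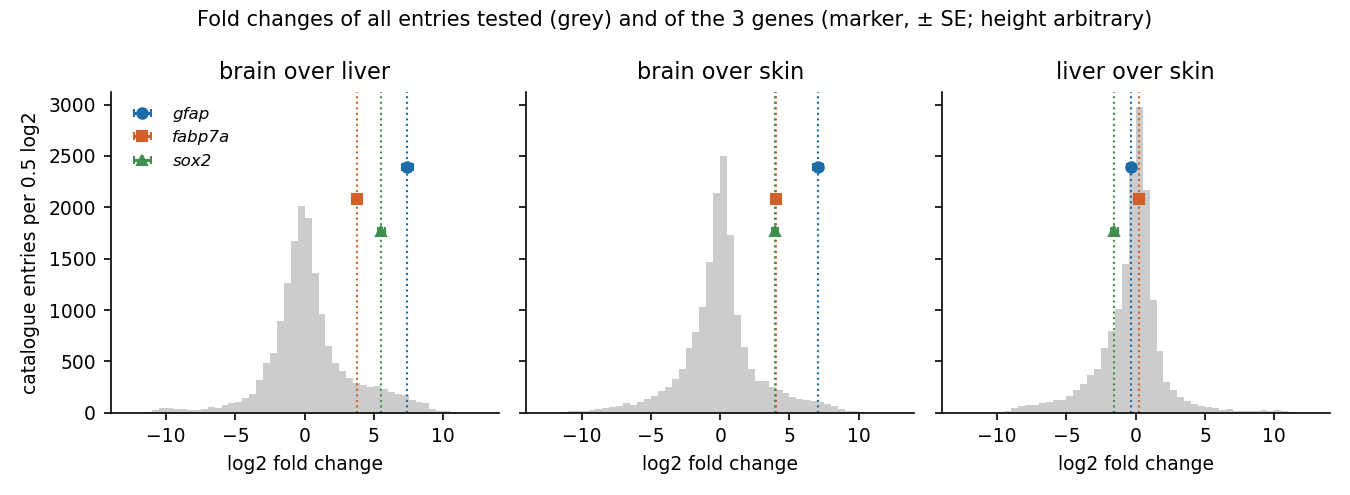
Log2 fold changes of all 16611 entries tested (grey, entries per bin) in the 3 comparisons, with the 3 members as markers with SE at arbitrary heights. In both comparisons with brain the members lie in the right tail, gfap farthest out at 7.42 and 7.08, while in liver over skin sox2 lies to the left at -1.56 and the other members near 0.

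The size of these folds depends on the scaling. Without TMM the median log2 fold change of all entries was 1.49 for brain over liver, 0.76 for brain over skin and -0.78 for liver over skin, against 0.013, 0.027 and -0.031 with it. Without scaling, 84.2% of the entries called between brain and liver were higher in brain, against 51.2% with TMM. That share was 70.4% against 49.6% for brain and skin, and 17.2% against 46.6% were higher in liver for liver and skin. The unscaled log2 fold changes for brain over liver were 8.94 for gfap, 5.24 for fabp7a and 7.02 for sox2. Taken relative to the median of all entries they were 7.46, 3.76 and 5.54, close to the scaled values. This closeness is built in, since TMM itself brought the median near 0, so it is no separate check of the scaling. The differences between brain and the other organs passed the test in each alternative that was run, for all 3 genes.

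Liver and skin are the pair in which the scaling decided a call. Without scaling, gfap was lower in liver by the edgeR test (log2 fold change -1.12, SE 0.30, adjusted p = 0.00325), and fabp7a pointed the other way from the scaled fit at -0.50 (SE 0.28, edgeR adjusted p = 0.126). Relative to the median of all entries, the unscaled values were -0.34 for gfap and 0.27 for fabp7a, near the scaled values for the same built-in reason. The call for sox2 held in each alternative, with log2 fold changes from -2.32 to -0.58. Its smallest value came from deposited RPKM with a pseudocount of 1, which exceeds the sox2 level of every liver and skin. Relative to the median of all entries that value was -0.13.

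**Figure D3:**
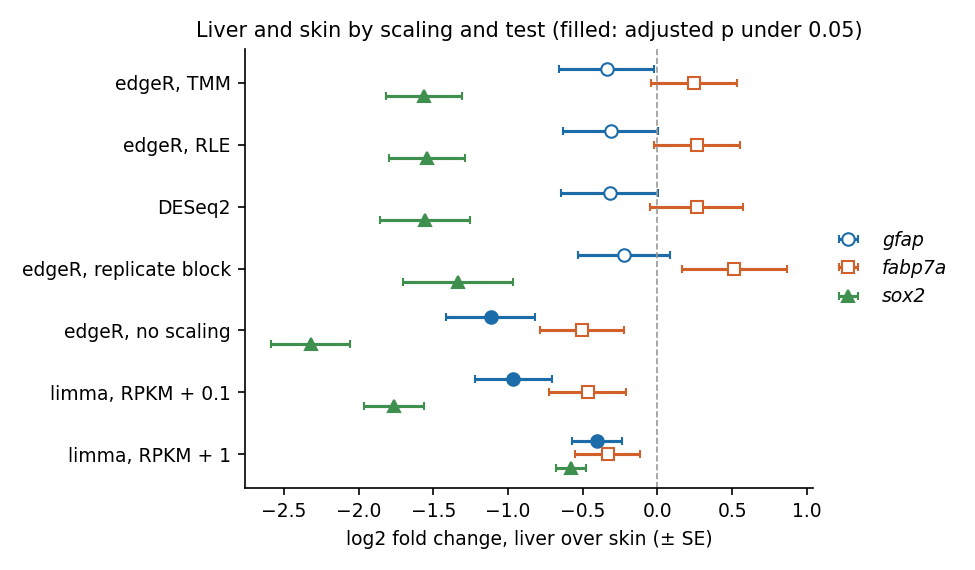
Log2 fold change of each gene for liver over skin (± SE) under 7 combinations of scaling and test, with filled markers for an adjusted p under 0.05. The sox2 markers are filled and left of 0 throughout, those of gfap are filled without scaling and on RPKM, and those of fabp7a are open and lie on either side of 0.

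Levels of different genes were set side by side only per unit length, as the authors' deposited RPKM (reads per kilobase and per-million counted reads). In brain the RPKM of gfap was 191 ± 43.7 (SD, n = 5), that of fabp7a 67.9 ± 24.1 and that of sox2 18.3 ± 1.98. This order, gfap over fabp7a over sox2, held in each of the 5 brains. The RPKM of gfap was 2.10 to 3.63 times that of fabp7a and 7.08 to 13.7 times that of sox2. Ranked by RPKM among all 18311 entries of a library, gfap stood between places 192 and 435 in the brains, fabp7a between 539 and 1288 and sox2 between 3738 and 4822.

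Liver and skin showed another order. In liver the RPKM was 1.78 ± 0.520 for fabp7a, 0.389 ± 0.180 for gfap and 0.137 ± 0.0565 for sox2 (SD, n = 5), and the order fabp7a over gfap over sox2 held in all 5 livers. In skin fabp7a again came first at 2.53 ± 0.749, above both other genes in all 5 skins. There gfap, at 0.839 ± 0.229, and sox2, at 0.702 ± 0.159, were not separated. In 4 of 5 skins gfap had the higher RPKM, and in skin 5 sox2 did, at 0.763 against 0.462. By RPKM fabp7a exceeded 45.0% to 55.3% of the entries in the livers and 34.2% to 48.3% in the skins. The corresponding ranges of sox2 were 16.5% to 23.5% and 21.0% to 26.0%, and those of gfap were 24.3% to 37.5% and 20.6% to 28.0%.

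**Figure D4:**
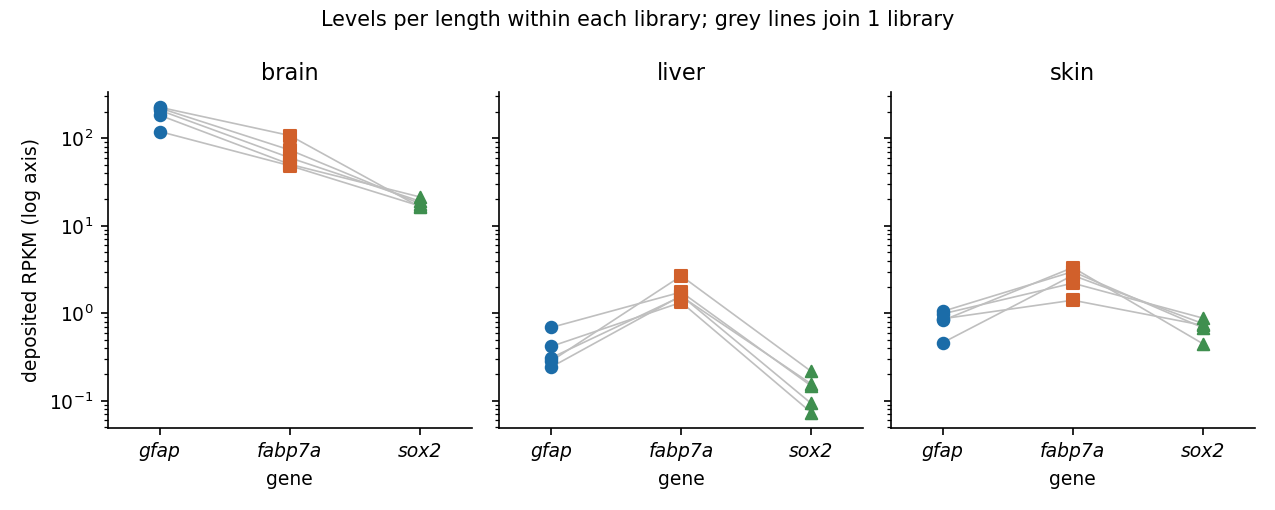
Deposited RPKM (log axis) of the 3 genes within each tissue, with grey lines joining the values of 1 library. In brain the lines fall from gfap to sox2, while in liver and skin they peak at fabp7a, which lay above gfap in all 10 of those libraries.

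Whether 1 gene stood further apart between tissues than another was tested on the difference of log2(RPKM + 0.1) between 2 genes of the same library. This difference does not depend on how libraries are scaled, apart from the pseudocount. Each of the 9 combinations of gene pair and tissue pair was compared by a 2-sided exact permutation test of 5 against 5 libraries, where 0.00794 is the smallest p possible. The test took the libraries as unpaired, and no paired form of it was run. Relative to fabp7a, gfap was higher in brain than in liver by 3.49 and higher than in skin by 3.00 on the log2 scale. Both had p = 0.00794 and adjusted p = 0.0143 in the exact permutation test, and in both all 5 brains lay above all 5 libraries of the other organ. Relative to sox2, gfap was higher in brain by 2.34 against liver and by 3.14 against skin, with the same exact permutation p of 0.00794 and adjusted p of 0.0143. The gap between brain and the other organs was therefore wider for gfap than for either other gene.

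The remaining pair, fabp7a and sox2, behaved differently in liver and in skin. Relative to sox2, fabp7a was lower in brain than in liver by a log2 difference of -1.15 (exact permutation test, p = 0.0159, adjusted p = 0.0238), with 4 of 5 brains below all livers. Liver also exceeded skin in this ratio by 1.30 (exact permutation p = 0.00794, adjusted p = 0.0143), with all 5 livers above all 5 skins. Between brain and skin the ratio differed by 0.14, where the SD over libraries was 0.57 in brain and 0.69 in skin (exact permutation p = 0.738, adjusted p = 0.738). Liver and skin were not separated in gfap relative to fabp7a, at -0.50 (exact permutation p = 0.254, adjusted p = 0.286). For gfap relative to sox2 the difference of 0.80 between liver and skin missed the threshold (exact permutation p = 0.0556, adjusted p = 0.0714), and it passed with a pseudocount of 0.01 or none, on TMM CPM, and without liver 14 or without skin 13.

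The pseudocount matters where sox2 is near it. With no pseudocount, an alternative chosen after seeing the data, fabp7a relative to sox2 differed by -1.93 between brain and liver and by 1.93 between liver and skin (adjusted p = 0.0119 for both, exact permutation test). With a pseudocount of 1 the first of these turned to 0.50 (adjusted p = 0.131) and the second shrank to 0.24 (adjusted p = 0.295) in the exact permutation test. The 4 differences of gfap between brain and another organ passed with every pseudocount.

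**Figure D5:**
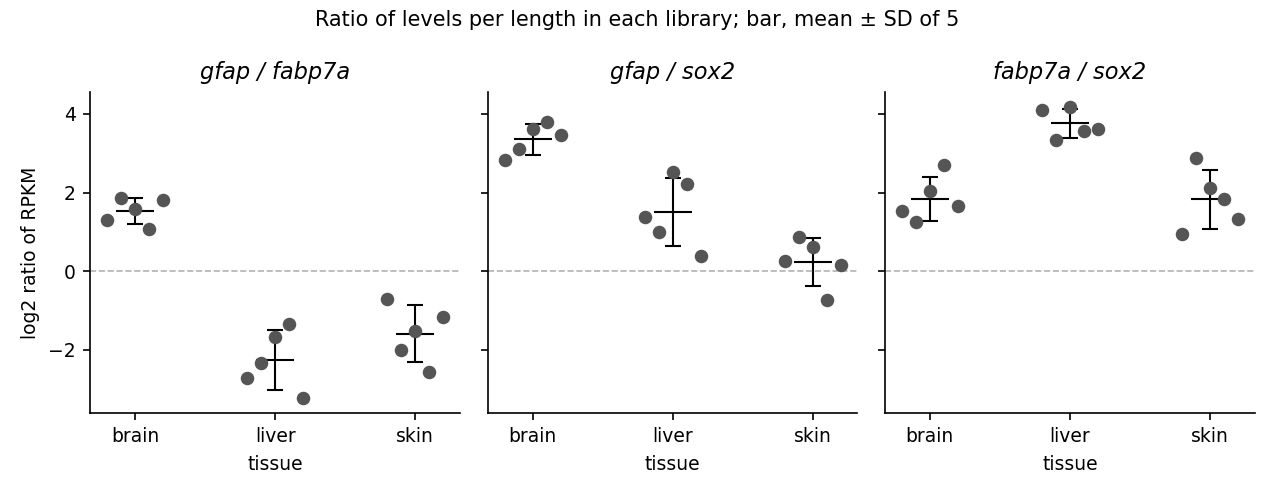
Log2 ratio of deposited RPKM between pairs of members in each library, without pseudocount, with the mean and SD of 5 libraries per tissue. The ratio of gfap to fabp7a lies between 1.07 and 1.86 in the brains and below 0 in every liver and skin, and the ratio of fabp7a to sox2 is highest in the livers, at 3.33 to 4.18.

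The spread of each member between brains fell when its most extreme library was left out. Leaving out the library farthest from the rest tends to lower any spread. How far it falls over all entries was not computed. The coefficient of variation of TMM CPM was 36.8% for fabp7a, 21.6% for gfap and 10.7% for sox2, where counting error alone gives 2.68%, 0.905% and 3.20%. The median over the 14688 entries with at least 1 CPM in brain was 15.1%. Of these entries 94.0% varied less than fabp7a, 74.4% less than gfap and 27.3% less than sox2. Without brain 13 the value of fabp7a was 17.2%, against 2.86% from counting. This was below the 22.0% of gfap in the same 4 brains, so the order of these genes turns. Without brain 15 the value of gfap was 9.78%, against 0.867% from counting and below the 12.0% of sox2. Without brain 10 that of sox2 was 2.58%, within the 3.44% that counting gives. No order of the members by their spread is therefore drawn. From highest to lowest measured level, gfap and fabp7a both ranked the brains as brain 13, brain 11, brain 14, brain 10 and brain 15. For fabp7a the lower end of this order is not resolved by counting. Its Clopper-Pearson intervals overlap in brain 15 (26.1 to 29.5 CPM), brain 10 (26.6 to 29.6) and brain 14 (28.9 to 32.6). The share of entries with this order was not tested, so no joint variation of the genes is drawn from it. For sox2 brain 10 was the highest and brain 13 the lowest. The sox2 interval of brain 13 (21.5 to 24.8 CPM) overlaps those of brain 11, brain 14 and brain 15.

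Outside the brain counts were lower, so counting error was larger and the spread lay closer to it. Over entries with at least 1 CPM in the tissue, the median coefficient of variation was 27.7% in liver and 20.5% in skin. Of these entries in liver, 84.6% varied less than gfap and 54.4% less than fabp7a, while sox2 lay under 1 CPM there. In skin 69.1% varied less than gfap, 77.6% less than fabp7a and 40.0% less than sox2. For sox2 the coefficient of variation was 43.1% in liver and 17.7% in skin, with 36.3% and 17.3% from counting alone. For gfap it was 53.4% in liver and 27.9% in skin, against 19.8% and 14.1%, and for fabp7a it was 29.7% and 32.9%, against 16.0% and 14.3%. Some of these values too fell when 1 library was left out. Without liver 13 that of gfap in liver was 32.9%, against 21.4% from counting. Without liver 14 that of fabp7a was 16.9%, against 17.4%. In skin gfap gave 9.28% without skin 5 and sox2 7.38% without skin 13, below the 13.2% and 16.7% that counting gives. For sox2 in skin the spread was close to counting error with all 5 libraries as well. The highest liver differed between genes as well. It was liver 13 for gfap and liver 14 for fabp7a and sox2.

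The comparisons were repeated without liver 14 and skin 7, which shared 95 raised entries. The log2 fold changes for brain over liver were then 7.31 for gfap, 3.94 for fabp7a and 5.76 for sox2, and sox2 remained lower in liver than in skin at -1.80 (SE 0.28, edgeR adjusted p = 5.05e-05). In skin 7 the 3 genes did not stand out, since fabp7a and sox2 lay inside the range of the other skins and gfap was the highest at 2.95 CPM next to 2.72 in skin 6.

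Finally, the entries most like each member were sought by Pearson's r of log2(RPKM + 0.1) over the 15 samples, among entries with a mean of at least 1 RPKM in brain. With 3 tissues, r mainly reflects the means of the tissues, and it is given as a description. For gfap the most similar were Nofu_gene_3_0017167 (ENSDARG00000002970, r = 0.998) and Nofu_gene_3_0004405 (ENSDARG00000070863, r = 0.997). For fabp7a they were Nofu_gene_3_0006091 (ENSDARG00000060012, r = 0.994) and Nofu_gene_3_0012791 (ENSDARG00000044596, r = 0.994), and for sox2 Nofu_gene_3_0009692 (ENSDARG00000074535, r = 0.998) and Nofu_gene_3_0015265 (ENSDARG00000056294, r = 0.997). The first of the sox2 entries had mean RPKM of 22.6 in brain, 0.249 in liver and 1.09 in skin, above the level of sox2 in each tissue. A high r does not mean a like level or fold. The second fabp7a entry had 13.6 in brain, 0.0117 in liver and 0.0562 in skin, where fabp7a had 67.9, 1.78 and 2.53. Its liver and skin means lay below the pseudocount of 0.1. So did the liver means of the first gfap entry (0.0756) and the second sox2 entry (0.0933), and no other mean of the entries named.

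No member was among the 2 entries most like another member. Those entries were picked for the highest r, so a lower r between members follows largely from that choice. Over all entries compared, the median r was 0.751 with gfap, 0.744 with fabp7a and 0.793 with sox2. The r was 0.983 between gfap and fabp7a, 0.976 between gfap and sox2 and 0.963 between fabp7a and sox2. High values were common, since 2161 of 14685 entries had r over 0.95 with gfap, 1901 with fabp7a and 2667 with sox2. Among the 14685 entries ranked by likeness to gfap, fabp7a held place 700 and sox2 place 1101. In the list of fabp7a, gfap held place 231 and sox2 place 1363. In that of sox2, gfap held place 971 and fabp7a place 1766. The place of a pair thus depends on whose list is read.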

How the data were processed

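The authors deposited raw read counts and RPKM per catalogue entry, and both are named so per the file headers. Tools listed, with no role, in the submitters' processing notes are featureCounts 1.4.3-p1, TopHat2 2.0.6, CASAVA 1.8.2 and Bowtie. For genome build, annotation, strandedness and reads that match several genes, details were not given in the sources used here, so reads shared between close relatives (of the sox and fabp families, for example) are uncertain. The table of counts per genome model was not used, since no file links its identifiers to the members. Another 60 sample columns of the RPKM table were not used either.

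Counts were tested with edgeR 4.0.16 in R 4.3.3 (filterByExpr with a count minimum of 10, TMM scaling, 1 quasi-likelihood fit of all 15 samples, Benjamini-Hochberg adjustment over 16611 entries, threshold 0.05). SE is the log2 fold change divided by the square root of F. Alternatives used DESeq2 1.42.0 and limma 3.58.1, and exact tests used SciPy 1.17.1. The edgeR procedure was tested on simulated counts with the same dispersion for all entries. The planted folds were smaller than those of the members between brain and the other organs. Mean counts as low as those of sox2 in liver were not among the planted entries, so the simulation does not cover these values. Members, lists and tests were chosen with earlier results of these data known. All 3 members are named in full, beside the 2 entries most like each by r. None of the zebrafish or catalogue identifiers matched the 38438 genes of the RefSeq table of assembly NfurGRZ-RIMD1, where gfap, fabp7a and sox2 each name 1 gene.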

Additional observations from a re-analysis of the deposited data

Results flagged for a closer look

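Of 9 groups of 5 libraries (3 genes in 3 tissues), 1 held a library far from the rest by Dixon's criterion at the 95% level (critical value 0.71), where chance gives about 1 in 20 groups. It is sox2 in brain, where brain 10 stood at 29.9 CPM and the other brains between 23.1 and 24.6. The gap to the nearest brain was 0.782 of the whole range. Brain 10 also has the largest total count, 30.8 M, and the part of depth in this value was not tested. It was not the highest brain for gfap or fabp7a.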

How the results depend on the processing

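Brain exceeded liver and skin past the threshold for all 3 genes in every alternative: DESeq2, RLE or no scaling, no filter, fits of 2 tissues, limma on RPKM, entries summed by identifier, each library left out, liver 14 and skin 7 left out, and the replicate block. For liver over skin, gfap passed without scaling (-1.12) and with limma on RPKM (-0.97 with a pseudocount of 0.1, -0.40 with 1), and fabp7a reversed to -0.50, -0.47 and -0.33 in these fits, without passing. Without scaling, entries higher in brain than liver numbered 11623 in place of 6284 and those higher in liver 2189 in place of 5981. The corresponding numbers were 9022 for 5758 and 3799 for 5859 in brain and skin, and 1913 for 4864 and 9219 for 5570 in liver and skin. With limma on RPKM (pseudocounts 0.1 and 1) they were 11898 and 11671 higher in brain than liver against 2089 and 2021, 9243 and 9293 higher in brain than skin against 3688 and 3716, and 1869 and 1783 higher in liver than skin against 9390 and 8834. For the ratio of fabp7a to sox2, a pseudocount of 1 gave 0.50 for brain over liver and 0.24 for liver over skin. The ratio of gfap to sox2 for liver over skin passed at 1.19 with a pseudocount of 0.01, 1.09 on TMM CPM and 1.26 with none. Leaving out 1 library gave 0.59 to 0.98 for that ratio, and -0.078 to 0.38 for fabp7a to sox2 in brain over skin, with values below 0 without brain 13 or skin 6. For these the cause was not tested. Leaving out 1 library, an alternative added after seeing the data, gave coefficients of variation of 9.78% to 25.0% for gfap, 17.2% to 42.9% for fabp7a and 2.58% to 12.2% for sox2 in brain, 32.9% to 63.0%, 16.9% to 34.6% and 36.3% to 50.8% in liver, and 9.28% to 32.4%, 26.5% to 38.2% and 7.38% to 20.3% in skin.

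Title numbers recur between tissues, but no label says whether a number marks 1 fish, so the main fit did not take the numbers as pairs. The deviations of the 9 same-numbered pairs correlated at 0.030 to 0.26, with 4 of 9 above 0.1. All 9 correlations were above 0. Between brain and liver, 8 of 10 libraries correlated best with their own number, a hint from the data and not from the design. Skin was mixed. Skin 14 correlated best with brain 14 among brains (0.26), and liver 13 with skin 13 among skins (0.079). Skin 13, however, correlated best with brain 11 (0.11) and liver 10 (0.16), and skin 14 with liver 11 among livers (0.12). The highest r of all, 0.285, joined liver 14 and skin 7, which differ in number. With the replicate block the log2 fold changes of gfap, fabp7a and sox2 were 7.48, 3.70 and 5.58 for brain over liver, and sox2 for liver over skin was -1.33 (edgeR adjusted p = 0.0135). No edgeR call of the members changed. The exact permutation tests of 1 gene relative to another were not rerun with the numbers taken as pairs. The genome table was not run, since no identifier leads from the members to it. Depth limits the liver values of sox2 most, at 4 to 13 counts.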
